A study of Mus musculus with 9 samples.

Results

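Interferon-stimulated genes were examined in the right ventricle of the mouse heart as a fixed list of 38 gene symbols. A probe set was taken as a member where the deposited annotation table gave it one of these symbols, and the probe set with the highest mean signal was kept for each gene. In this way 37 of the 38 genes were measured, of 22088 genes on the array. They fell into 8 interferon-inducible GTPases and 29 other members, and no probe set carried the symbol Igtp.

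RNA from male mice was hybridised to 9 Affymetrix gene arrays, 1 per sample, in 3 groups of 3. The first group was wild type on a vitamin A sufficient diet. The other groups were both labelled Lrat-/-, one on the sufficient diet and the other on a vitamin A deficient diet. The sufficient diet was the deficient diet with 250000 U/kg retinol palmitate added, and tissue was taken after 50 days on the diet. No wild-type mice on the deficient diet were among the samples, the age and strain were not given, and the labels do not say whether each sample was a separate animal, so the p-values describe the variation among these samples, part of which may be technical. Lrat encodes the enzyme that turns retinol into the ester form in which tissues store vitamin A. Against their label, the Lrat-/- arrays had more Lrat signal than the wild type, 7.87 ± 0.22 with the sufficient diet and 7.69 ± 0.12 with the deficient diet against 6.34 ± 0.09 (log2 signal, mean ± SD, n = 3). Where that probe set lies relative to the deleted part of the gene was not given, so the genotype is named below as the labels give it. Cardiomyocyte markers were above background on all 9 arrays for 9 of 10 genes, background being the mean signal of the negative-control probe sets of the same array.

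Interferons are cytokines that cells release on sensing virus or on immune activation. Type I interferons act through a complex that holds STAT2 and IRF9 and binds the interferon-stimulated response element of target promoters. Interferon gamma, made by T cells and natural killer cells, acts on target promoters through the gamma-activated site. Guanylate-binding proteins and immunity-related GTPases are among the genes most responsive to interferon gamma in the mouse and attack the vacuoles of intracellular parasites and bacteria. Most of the remaining members restrict viruses, sense viral RNA or carry the signal onward. In the heart, muscle cells, fibroblasts, endothelial cells and resident macrophages can all respond to interferon. In whole tissue, fewer cells of a type and less RNA per cell cannot be told apart.

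The promoters of 4 members are shown, chosen with their values known, because they stand for both patterns described below. Tgtp1, Irgm2 and Gbp2 are GTPases that were highest on 1 wild-type array, and Rsad2 is an antiviral gene with its lowest values in the wild type. Each run is the 250 bases before the RefSeq start in GRCm38.p6, 5′ to 3′ on the strand of the gene, at chr11:48992247-48992496 (minus strand) for Tgtp1, chr11:58214727-58214976 (plus) for Irgm2, chr3:142620413-142620662 (plus) for Gbp2 and chr12:26456453-26456702 (minus) for Rsad2. Capitals mark matches to the response element core (GAAA, NN for any 2 bases, then GAAA) or to the gamma-activated core TTCNNNGAA, on either strand.
Tgtp1: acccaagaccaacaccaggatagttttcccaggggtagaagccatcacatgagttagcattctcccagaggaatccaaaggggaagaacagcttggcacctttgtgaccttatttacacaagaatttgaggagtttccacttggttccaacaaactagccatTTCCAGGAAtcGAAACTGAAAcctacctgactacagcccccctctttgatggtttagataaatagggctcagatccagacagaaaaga
Irgm2: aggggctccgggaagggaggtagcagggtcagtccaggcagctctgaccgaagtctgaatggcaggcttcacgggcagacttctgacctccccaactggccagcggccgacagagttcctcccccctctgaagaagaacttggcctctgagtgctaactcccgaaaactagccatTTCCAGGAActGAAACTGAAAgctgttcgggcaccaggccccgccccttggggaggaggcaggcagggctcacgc
Gbp2: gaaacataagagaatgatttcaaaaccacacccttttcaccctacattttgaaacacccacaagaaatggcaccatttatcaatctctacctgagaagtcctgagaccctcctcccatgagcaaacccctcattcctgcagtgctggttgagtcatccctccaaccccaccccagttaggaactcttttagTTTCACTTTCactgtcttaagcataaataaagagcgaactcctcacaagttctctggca
Rsad2: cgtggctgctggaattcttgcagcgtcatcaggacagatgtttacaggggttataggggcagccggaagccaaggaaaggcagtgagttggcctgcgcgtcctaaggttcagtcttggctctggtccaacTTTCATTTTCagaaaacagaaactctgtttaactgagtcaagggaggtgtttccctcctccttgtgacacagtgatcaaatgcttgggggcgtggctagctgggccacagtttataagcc

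A RefSeq promoter window of 300 bases, 250 before the start and 50 after it, was found for 26 of the 37 members. Of these, 16 (61.5%) held the response element core on either strand, against 3.99% of all 27025 genes with a window. TTCNNNGAA was found in 7 members (26.9%) against 9.55% of all genes. Among the members with a window, the response element core was in 5 of 5 GTPases and in 11 of 21 other members, and the gamma-activated core in 2 of 5 and in 5 of 21. The matches of Tgtp1 and Irgm2 are laid out alike, the gamma-activated core first and the response element core after a gap of 2 bases. The gamma-activated match is the end of a run of 20 bases that both windows share, aaactagccatTTCCAGGAA. That joint arrangement, TTCNNNGAA and then the response element core 2 bases on, was looked for after the matches had been seen and was in 5 of 32851 windows, those of Tgtp1, Irgm2, Igtp, Tgtp2 and Gm12185. A match is a description of the letters and does not show that a factor binds there.

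No member passed the threshold in any comparison with limma at an adjusted p under 0.05 over all genes. The lowest adjusted p of a member was 0.657 between the sufficient group labelled Lrat-/- and the wild type, 1.0 between the diets and 0.305 between the deficient group labelled Lrat-/- and the wild type. Over all genes, 8 (0.0362%), 0 (0%) and 15 (0.0679%) passed in these comparisons. Before adjustment, 6, 1 and 4 of the 37 members had a p under 0.05. Of all genes, 2.71%, 0.444% and 2.74% were higher and 3%, 0.869% and 3.35% lower at that p. All 3 comparisons share arrays, so their values are given side by side and are not independent of each other.

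**Figure D1:**
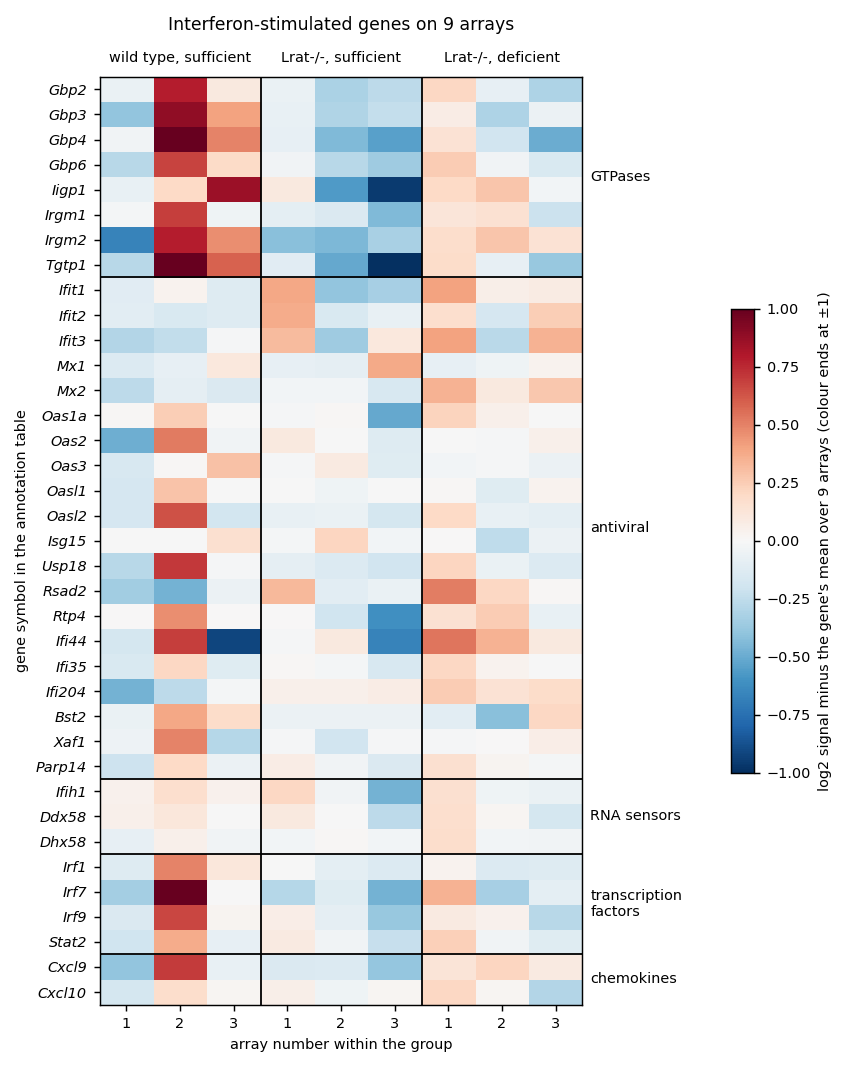
Log2 signal of 37 interferon-stimulated genes (rows) on 9 arrays (columns), with the mean of each gene over the 9 arrays subtracted and the colour ending at ±1. Wild-type array 2 is the highest of the 9 arrays for 22 of the 37 genes, and Mx1 is below background on every array.

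The main feature of the members was the spread among the wild-type arrays. Wild-type array 2 was the highest of the 9 arrays for 22 of 37 members, among them 7 of 8 GTPases, and it was the highest for 15.6% of all genes. Array 1 of the deficient group labelled Lrat-/- was the highest for 9 members, none of them a GTPase, and for 4.84% of all genes. Wild-type array 1 was the lowest for 12 members and for 12.3% of all genes. Array 3 of the sufficient group labelled Lrat-/- was the lowest for 14, among them 5 of 8 GTPases, and it was the lowest for 13.1% of all genes. The median SD within a group was 0.54 for the GTPases in the wild type, against 0.18 and 0.21 in the sufficient and deficient groups labelled Lrat-/-. For all genes it was 0.13, 0.10 and 0.10 in the same order.

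As a summary, each gene was centred on its mean over the 9 arrays and the centred log2 values were averaged per array. For the GTPases the mean was -0.23, 0.85 and 0.38 on wild-type arrays 1 to 3, -0.10, -0.38 and -0.52 on the sufficient arrays labelled Lrat-/-, and 0.17, 0.00 and -0.19 on the deficient arrays. Wild-type arrays 2 and 3 thus lay above all 6 arrays labelled Lrat-/-, while wild-type array 1 lay among the sufficient arrays and below all 3 deficient ones. For the other 29 members the mean was -0.17, 0.26 and -0.05 in the wild type, 0.04, -0.07 and -0.18 in the sufficient group and 0.18, -0.02 and 0.00 in the deficient group. All 3 groups overlapped there. The group means of the GTPases were 0.33 ± 0.54, -0.33 ± 0.21 and 0.00 ± 0.18, and those of the others 0.01 ± 0.22, -0.07 ± 0.11 and 0.05 ± 0.11 (mean ± SD, n = 3).

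**Figure D2:**
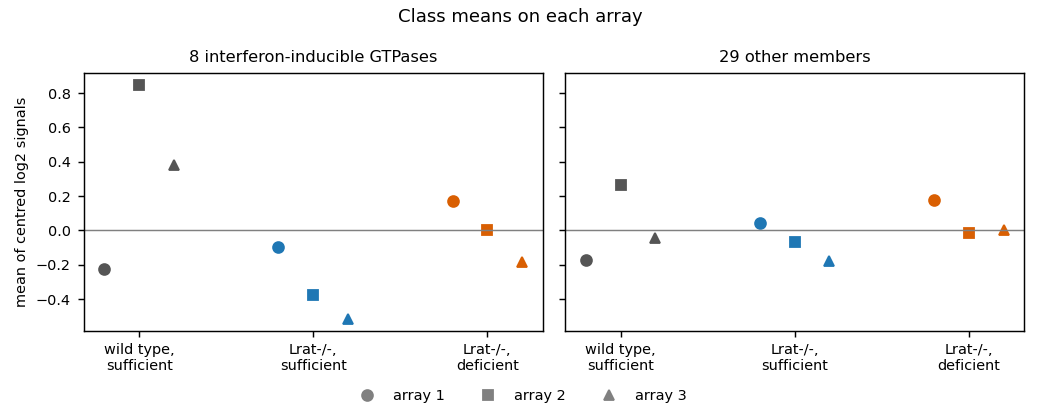
Mean of the centred log2 signals of 8 interferon-inducible GTPases (left) and 29 other members (right) on each array, by group, with the marker shape giving the array number. The GTPase mean runs from -0.23 to 0.85 within the wild type.

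Markers of other cells differed between the arrays, and the lists did not all follow the GTPases. The summed linear signal of 12 macrophage and monocyte genes was 8619 on wild-type array 2, where the GTPases were highest, and 6595 and 6940 on wild-type arrays 1 and 3. It was 6279 to 6671 in the sufficient and 6286 to 7358 in the deficient group labelled Lrat-/-, and 11 of the 12 genes were lower in the genotype comparison. Of the 12, 10 were higher and 2 lower in the diet comparison. Between the deficient group and the wild type 1 was higher and 11 were lower. The medians of this list were -0.22, 0.06 and -0.09 in these 3 comparisons, in the same directions as the GTPase medians of -0.55, 0.25 and -0.26. The sum of 13 T cell and natural killer cell genes was 829.5 to 973.1 in the wild type, 807.6 to 837.2 in the sufficient and 805.5 to 829.9 in the deficient group, with Cd3g and Klrb1c below background on all 9 arrays. The value of 973.1 was on wild-type array 3. Wild-type array 2 was at 871.6, also above every array labelled Lrat-/-. Of the 13 genes, 4 were higher and 9 lower in the genotype comparison, and 7 were higher and 6 lower in the diet comparison. The 9 endothelial genes summed to 9192 to 9976, 8596 to 8958 and 9092 to 9740, and 8 of the 9 were lower in the genotype comparison and 7 higher in the diet comparison. The endothelial sum was also highest on wild-type array 3. The 9 fibroblast genes summed to 11723 to 12046 in the wild type, 10218 to 10810 in the sufficient and 10069 to 11171 in the deficient group, so both groups labelled Lrat-/- lay below the wild type. All 9 were lower in the genotype comparison (median -0.27) and in the combined comparison of the deficient group with the wild type (median -0.21). Of the neutrophil genes, 5 were higher and 2 lower in the genotype comparison. For conventional dendritic cells these numbers were 4 and 2, for B cells 3 and 3, and for plasmacytoid dendritic cells 1 and 3. Wild-type array 2 also had the lowest background, 5.37 against 5.60 to 5.71 on the other arrays. The part of these values in the differences of the interferon-stimulated genes was not tested.

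The genotype comparison sets the sufficient group labelled Lrat-/- against the wild type on the same diet. All 8 GTPases had a lower mean in the group labelled Lrat-/-, with a median log2 difference of -0.55, against 0.00 for all genes. The other members lay near 0, with 9 higher and 20 lower and a median of -0.06. Of the 37 members, 5 were lower at an unadjusted p under 0.05 (Gbp2, Gbp4, Iigp1, Tgtp1 and Rtp4; 3% of all genes) and 1 was higher (Ifi204; 2.71% of all genes). The groups did not overlap for 2 members that were lower (Gbp4 and Irgm1; 4.02% of all genes) and for 1 that was higher (Ifi204; 3.67%).

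Tgtp1 encodes an effector immunity-related GTPase that loads onto parasite vacuoles. Its log2 signal was 8.26, 10.14 and 9.13 on wild-type arrays 1 to 3, 8.43, 8.03 and 7.54 on the sufficient arrays labelled Lrat-/-, and 8.72, 8.46 and 8.17 on the deficient arrays. Wild-type arrays 2 and 3 exceeded all 6 others, while wild-type array 1 lay inside the range of both groups labelled Lrat-/-. In the genotype comparison it differed by -1.18 on the log2 scale (SE 0.41, unadjusted p = 0.0178, adjusted p = 0.733). A second probe set of Tgtp1 gave -1.17. The gene has a near-identical copy, Tgtp2, so the signal may hold both.

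Gbp4 encodes a guanylate-binding protein. Its signal was 8.17, 9.37 and 8.71 in the wild type, 8.13, 7.77 and 7.66 in the sufficient group and 8.35, 8.01 and 7.71 in the deficient group. All 3 wild-type arrays lay above all 3 sufficient arrays labelled Lrat-/-, with wild-type array 1 only just above sufficient array 1, and the deficient group overlapped both. The genotype difference was -0.90 (SE 0.28, unadjusted p = 0.00995, adjusted p = 0.657), the lowest adjusted p of a member in this comparison.

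Gbp2, another guanylate-binding protein, measured 7.68, 8.53 and 7.85 in the wild type, 7.69, 7.43 and 7.49 in the sufficient group and 7.96, 7.67 and 7.44 in the deficient group. Only wild-type array 2 stood above all the others. It differed by -0.48 (SE 0.21, unadjusted p = 0.0473, adjusted p = 0.865).

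Iigp1 encodes the immunity-related GTPase also called Irga6. It measured 8.43, 8.71 and 9.36 in the wild type, 8.60, 7.94 and 7.55 in the sufficient group and 8.70, 8.79 and 8.48 in the deficient group. Here wild-type array 3, not array 2, was the highest, and sufficient arrays 2 and 3 lay below all the rest. Between sufficient arrays and wild type it differed by -0.80 (SE 0.28, unadjusted p = 0.0188, adjusted p = 0.750).

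Irgm2 encodes a regulatory member of the family that keeps effector GTPases off host membranes. It measured 7.61, 9.06 and 8.74 in the wild type, 7.86, 7.82 and 7.95 in the sufficient group and 8.44, 8.55 and 8.41 in the deficient group. Each group labelled Lrat-/- was tight and the 2 diets did not overlap, while wild-type array 1 was the lowest of all 9 arrays and wild-type array 2 the highest. The genotype difference was -0.59 (SE 0.30, unadjusted p = 0.0760, adjusted p = 0.901). The authors' deposited table names this probe set Igtp, a closely related gene, so its signal may not belong to Irgm2 alone.

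The remaining GTPases differed in the same direction between these groups. Irgm1, a regulatory member too, had a genotype difference of -0.44 (SE 0.20, unadjusted p = 0.0521, adjusted p = 0.874), with wild-type arrays at 8.16, 8.87 and 8.14 above the sufficient arrays at 8.08, 8.03 and 7.73. Gbp3 differed by -0.50 and Gbp6 by -0.42, and both overlapped between the groups. The probe set that carries the symbol Gbp6 has the accession that RefSeq gives to Gbp7. The RefSeq accession of Gbp6 belongs to a probe set named Mpa2l in the annotation table, which is no member by the rule and was looked at after this mismatch was seen. Mpa2l measured 8.80, 9.70 and 8.82 in the wild type, 8.43, 8.36 and 8.02 in the sufficient group and 8.53, 8.56 and 8.27 in the deficient group, with all wild-type arrays above all 6 others. Its genotype difference was -0.84 (SE 0.23, unadjusted p = 0.00464, adjusted p = 0.541).

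**Figure D3:**
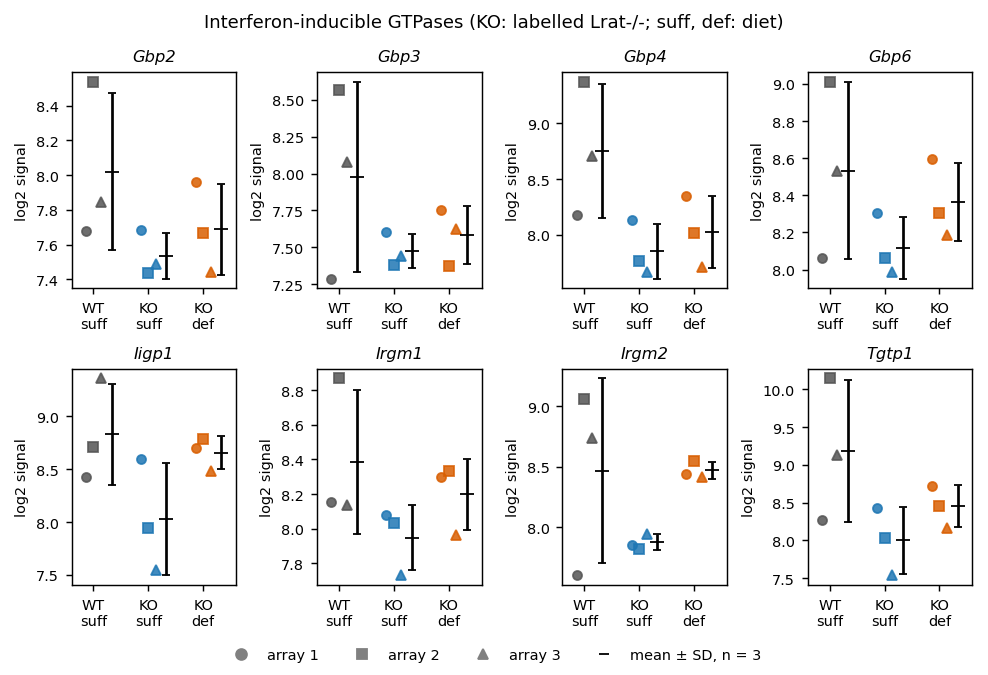
Log2 signal of 8 interferon-inducible GTPases by group (WT, wild type; KO, labelled Lrat-/-; suff and def, sufficient and deficient diet), each marker 1 array and the bars mean ± SD of 3 arrays. Wild-type array 2 (square) is the highest point for 7 of the 8 genes, and Iigp1 is the exception.

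Of the wild-type arrays, the lower GTPase signals rested most on array 2. Without wild-type array 3 the median GTPase difference was -0.55, as with all arrays. Without wild-type array 2 all 8 GTPases still had a lower mean, but the median difference was -0.26, and the split of the other members turned to 19 higher and 10 lower with a median of 0.07. Without wild-type array 1 the GTPase median was -0.92 and all 8 had an unadjusted p under 0.05 (4.22% of all genes lower in that fit). Irgm2 then passed the threshold at -1.02 (adjusted p = 0.0209), the only member called under any of the 17 other settings, whose adjusted p for Irgm2 otherwise ran from 0.597 to 1.0. Taken by array number, the median GTPase difference between the sufficient array labelled Lrat-/- and the wild-type array was 0.17 for number 1, with 6 of 8 higher, -1.14 for number 2 and -0.71 for number 3, with 0 of 8 higher in each. The other members had medians of 0.16, -0.23 and -0.09 for numbers 1 to 3.

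Among the other members, the genotype comparison showed no common direction. Ifi204, a member of the mouse PYHIN family of nucleic-acid-binding proteins, measured 8.89, 9.10 and 9.35 in the wild type, 9.41, 9.41 and 9.44 in the sufficient group and 9.61, 9.51 and 9.54 in the deficient group. The 3 groups did not overlap, in the order wild type, sufficient, deficient. Ifi204 was 0.31 higher (SE 0.11, unadjusted p = 0.0174, adjusted p = 0.733). The authors' deposited table names this probe set Mnda.

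Rtp4, an interferon-induced receptor transporter protein, ran the other way. It measured 7.56, 8.02 and 7.56 in the wild type, 7.56, 7.36 and 6.94 in the sufficient group and 7.71, 7.81 and 7.48 in the deficient group. Sufficient array 1 reached the wild-type values and the other 2 sufficient arrays were the lowest of all. Rtp4 differed by -0.43 (SE 0.18, unadjusted p = 0.0391, adjusted p = 0.865).

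Rsad2 encodes viperin, an enzyme that makes a chain-terminating nucleotide against viral polymerases. It measured 7.13, 7.0 and 7.41 in the wild type, 7.80, 7.37 and 7.41 in the sufficient group and 7.99, 7.68 and 7.49 in the deficient group. The wild-type arrays held the lowest values, and wild-type array 3 overlapped the sufficient group. Its genotype difference was 0.35 (SE 0.16, unadjusted p = 0.0632, adjusted p = 0.896).

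The transcription factors of the pathway followed wild-type array 2. Irf7, which drives the type I interferon genes, measured 7.14, 8.78 and 7.47 in the wild type, 7.19, 7.35 and 7.01 in the sufficient group and 7.83, 7.14 and 7.38 in the deficient group. Wild-type array 2 stood 0.95 above the next array, and wild-type arrays 1 and 3 lay among the others. Irf7 differed by -0.61 (SE 0.36, adjusted p = 0.924), and -0.12 without that array.

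Irf9, the DNA-binding partner of STAT2, measured 8.06, 8.87 and 8.23 in the wild type, 8.27, 8.11 and 7.82 in the sufficient group and 8.30, 8.24 and 7.92 in the deficient group. Irf1, a factor known to be induced by retinoic acid in human leukaemia cells as well as by interferon, measured 8.10, 8.73 and 8.34, then 8.23, 8.14 and 8.09, then 8.27, 8.10 and 8.11 in the same order of groups. Stat2 measured 7.55, 8.13 and 7.67, then 7.84, 7.72 and 7.52, then 7.99, 7.72 and 7.64. Wild-type array 2 was the highest for each of these 3 genes, and the groups overlapped in every comparison. Their genotype differences were -0.32 (SE 0.21), -0.24 (SE 0.14) and -0.09 (SE 0.16), and without wild-type array 2 they were -0.08, -0.07 and 0.08.

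The chemokines Cxcl9 and Cxcl10 draw T cells through the receptor CXCR3. Cxcl9 measured 7.39, 8.48 and 7.72 in the wild type, 7.64, 7.65 and 7.40 in the sufficient group and 7.92, 8.01 and 7.88 in the deficient group. Its wild-type arrays spanned both other groups, and the sufficient and deficient arrays did not overlap. Cxcl10 measured 6.11, 6.46 and 6.30, then 6.34, 6.24 and 6.30, then 6.49, 6.30 and 5.98, with overlap throughout. The genotype differences were -0.30 (SE 0.23) and 0.00 (SE 0.13).

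The remaining antiviral effectors had genotype differences between -0.28 and 0.21, namely -0.04 for Ifit1, 0.18 for Ifit2, 0.21 for Ifit3, -0.01 for Oas2, -0.07 for Oas3, -0.06 for Oasl1, -0.20 for Oasl2, -0.28 for Usp18, -0.06 for Ifi44, -0.03 for Ifi35, -0.13 for Xaf1 and -0.01 for Parp14. The Ifit proteins bind viral RNA, the Oas enzymes make the oligoadenylate signal for RNase L, and Usp18 strips Isg15 from proteins and damps the type I receptor. The RNA sensors Ifih1 (MDA5), Ddx58 (RIG-I, first described as a retinoic acid-inducible gene in human leukaemia cells) and Dhx58 (LGP2) differed by -0.18, -0.11 and 0.01. None of these 15 had an unadjusted p under 0.05. Mx1, a nuclear GTPase against influenza viruses, was below background on all 9 arrays, so no fold is given for it.

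The diet comparison sets the deficient against the sufficient group, both labelled Lrat-/-. Here 31 of 37 members had a higher mean on the deficient diet, 8 of 8 GTPases and 23 of 29 others, while 45.2% of all genes did. The differences were small, with a median of 0.25 for the GTPases, 0.09 for the others and -0.01 for all genes. Only Mx2 was higher at an unadjusted p under 0.05 (0.444% of all genes), and no member was lower at that p (0.869% of all genes). With the array number as a block 5 members were higher at that p (Mx2, Rtp4, Ifi44, Oas1a and Irgm2), against 0.878% of all genes in that fit, and none passed the adjusted threshold. The groups did not overlap for 4 members, all higher (Irgm2, Mx2, Ifi204 and Cxcl9; 1.96% of all genes), and for no member that was lower (3.26% of all genes). Part of the split rested on deficient array 1. Without it 26 members were higher and 11 lower, and the median of all members was 0.04, against 0.13 with all arrays. The GTPases were then still 8 of 8 higher, with a median of 0.17. The other members were 18 higher and 11 lower, with a median of 0.03, and 44.0% of all genes were higher.

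**Figure D4:**
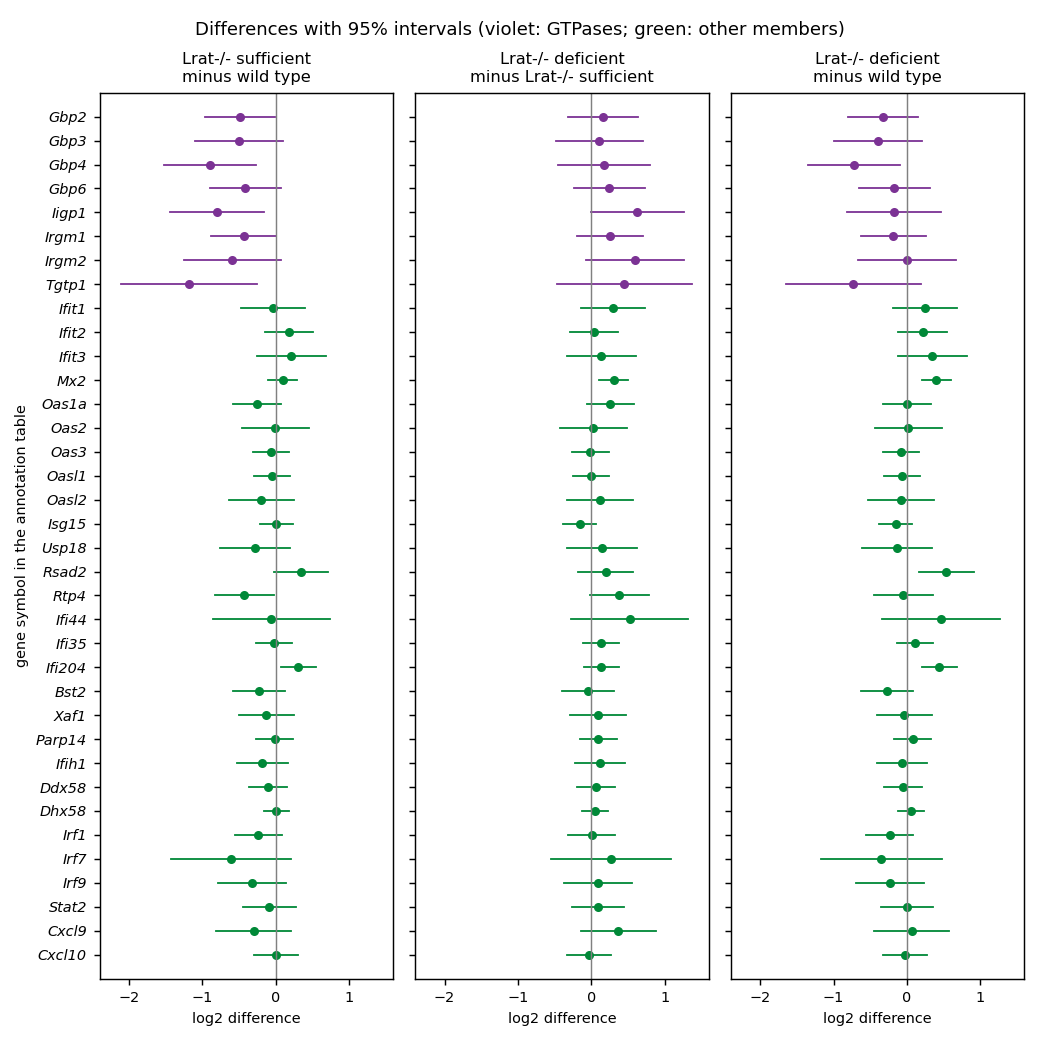
Log2 differences of 36 members with 95% intervals from the fit, for the 3 comparisons, GTPases in violet and other members in green, with Mx1 left out because it was below background on every array. The GTPases lie left of 0 in the genotype comparison, where Tgtp1 is at -1.18, and right of 0 in the diet comparison, where Iigp1 is at 0.63.

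Mx2 is named for the Mx family of dynamin-like GTPases, but RefSeq lists the transcript of its probe set as non-coding. The RNA measured here therefore does not show that a working protein was made. The Mx2 signal was near background, at 5.37, 5.54 and 5.48 in the wild type, 5.60, 5.60 and 5.46 in the sufficient group and 5.97, 5.72 and 5.89 in the deficient group. All 3 deficient arrays lay above the 6 others and above background, while 1 wild-type array and 0 sufficient arrays were above background. With the sufficient arrays set to their background, the mean signal was 1.14-fold higher on the deficient than on the sufficient diet. No interval was computed for that ratio. The log2 difference of the measured values was 0.31 (SE 0.09, unadjusted p = 0.00669, adjusted p = 1.0). The genotype comparison gave 0.09 (SE 0.09) for Mx2, with no fold because the sufficient group lay below background.

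Iigp1 and Irgm2 had the largest diet differences of the members. Iigp1 was higher by 0.63 (SE 0.28, unadjusted p = 0.0529, adjusted p = 1.0) on the deficient diet, where the arrays held 8.48 to 8.79 against 7.55 to 8.60. Irgm2 was higher by 0.59 (SE 0.30, unadjusted p = 0.0748, adjusted p = 1.0), with all 3 deficient arrays above all 3 sufficient arrays. The SE of Irgm2 comes from all 9 arrays and so carries the wide wild-type spread. Without wild-type array 1 the same difference had an unadjusted p of 0.000226, still with an adjusted p of 1.0. That array is in neither diet group, and 0.484% of all genes were higher at an unadjusted p under 0.05 in that fit. The unadjusted p for Irgm2 was 0.0492 with the array number as a block and 0.0832 with the arrays numbered 3 as a block.

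The other GTPases differed by 0.45 (Tgtp1), 0.25 (Irgm1), 0.24 (Gbp6), 0.17 (Gbp4), 0.15 (Gbp2) and 0.11 (Gbp3). By array number, the median GTPase difference between the diets was 0.25, 0.28 and 0.22 for numbers 1 to 3, with 8, 7 and 7 of 8 higher. The other members had medians of 0.09, 0.05 and 0.11, with 22, 17 and 25 of 29 higher. The direction was the same for every array number, and it has the sufficient arrays in common with the genotype comparison.

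Among the other members, Ifi44, Rtp4 and Cxcl9 had the largest diet differences. Ifi44, an interferon-induced protein of the cytoplasm, measured 7.68, 8.54 and 6.94 in the wild type, 7.84, 7.95 and 7.18 in the sufficient group and 8.38, 8.19 and 7.95 in the deficient group. Its deficient arrays met the sufficient ones at 7.95, and the wild type spanned both. The diet difference was 0.52 (SE 0.36, unadjusted p = 0.177, adjusted p = 1.0). Rtp4 differed by 0.38 (SE 0.18, unadjusted p = 0.0607) and Cxcl9 by 0.37 (SE 0.23, unadjusted p = 0.140).

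Oas1a measured 6.94, 7.17 and 6.93 in the wild type, 6.91, 6.94 and 6.41 in the sufficient group and 7.15, 6.98 and 6.92 in the deficient group. Sufficient array 3 stood apart as the lowest and the other 8 arrays lay close together. The genotype difference was -0.26 (SE 0.14) and the diet difference 0.26 (SE 0.14). Bst2, tetherin, which holds budding virus at the cell surface, measured 8.06, 8.51 and 8.31, then 8.06, 8.06 and 8.06, then 8.02, 7.70 and 8.33. The groups overlapped, with a genotype difference of -0.23 (SE 0.16) and a diet difference of -0.05 (SE 0.16). Bst2 is also a marker of plasmacytoid dendritic cells, and the 4 genes of that list summed to 294.7 to 304.6 in the wild type, 274.8 to 308.5 in the sufficient and 295.4 to 317.6 in the deficient group.

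Isg15, a ubiquitin-like protein that is attached to other proteins, was the member with the most negative diet difference. It measured 5.99, 5.99 and 6.15 in the wild type, 5.97, 6.21 and 5.97 in the sufficient group and 6.0, 5.74 and 5.94 in the deficient group. These signals were above background but near it, with deficient array 2 at 5.74 against a background of 5.67. The groups overlapped, and the difference was -0.16 (SE 0.10, unadjusted p = 0.142, adjusted p = 1.0). The genotype difference was 0.01. The authors' deposited table names the probe set Gm9706, so its signal may not belong to Isg15 alone.

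The members not yet named in this comparison differed by 0.29 (Ifit1), 0.04 (Ifit2), 0.14 (Ifit3), 0.02 (Oas2), -0.02 (Oas3), -0.01 (Oasl1), 0.11 (Oasl2), 0.15 (Usp18), 0.19 (Rsad2), 0.13 (Ifi35), 0.14 (Ifi204), 0.09 (Xaf1) and 0.09 (Parp14). The RNA sensors differed by 0.12 (Ifih1), 0.06 (Ddx58) and 0.05 (Dhx58). The factors differed by 0.27 (Irf7), 0.09 (Irf9), 0.09 (Stat2) and 0.00 (Irf1), and Cxcl10 by -0.03. Ddx58, whose other name RIG-I refers to retinoic acid, thus differed little between the diets, with a 95% interval of -0.20 to 0.32. For Irf1 the interval was -0.31 to 0.32.

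**Figure D5:**
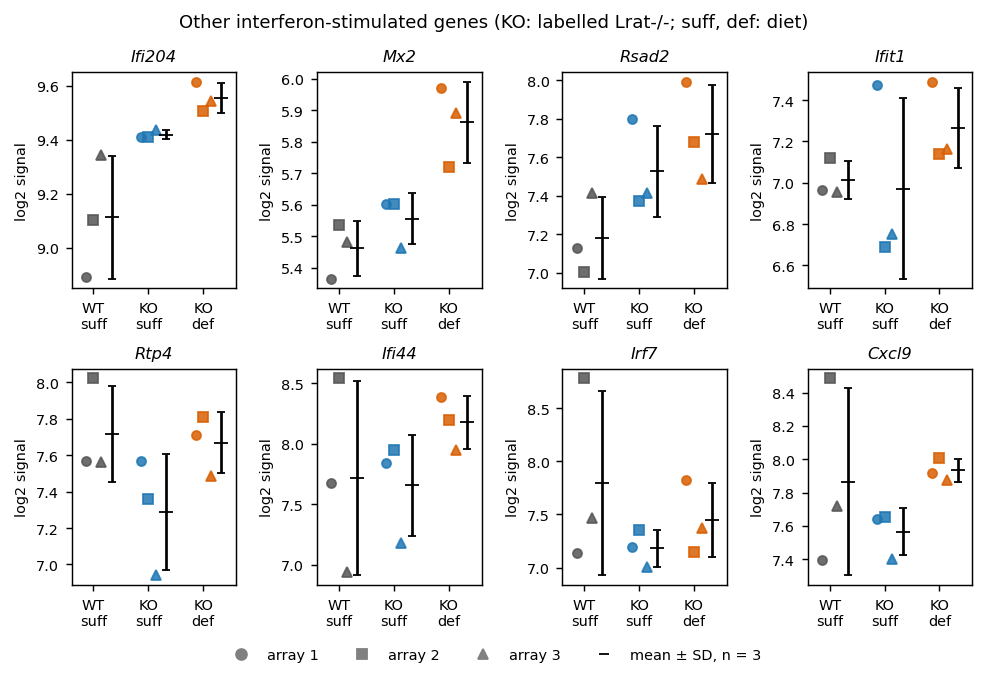
Log2 signal of 8 other members by group (WT, wild type; KO, labelled Lrat-/-; suff and def, sufficient and deficient diet), each marker 1 array and the bars mean ± SD of 3 arrays. Mx2 and Ifi204 are highest on the 3 deficient arrays, and Irf7 is highest on wild-type array 2, at 8.78.

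The combined comparison sets the deficient group labelled Lrat-/- against the wild type, so genotype and diet differ together. Members were split, 16 higher and 21 lower, with a median of -0.05. The GTPases had a median of -0.26, with 7 of 8 lower, and the other members 0.00. At an unadjusted p under 0.05, 3 members were higher (Mx2, Rsad2 and Ifi204; 2.74% of all genes) and 1 was lower (Gbp4; 3.35%). The groups did not overlap for 4 members, all higher (Mx2, Rsad2, Ifi204 and Ifit1; 3.28% of all genes), and for no member that was lower (4.88% of all genes).

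Ifi204 was higher by 0.44 (SE 0.11, unadjusted p = 0.00225, adjusted p = 0.362) and Rsad2 by 0.54 (SE 0.16, unadjusted p = 0.00904, adjusted p = 0.566). Mx2 differed by 0.40 (SE 0.09, unadjusted p = 0.00129, adjusted p = 0.305), with 1 of 3 wild-type arrays above background. Ifit1, whose product binds viral RNA that lacks the host cap marks, measured 6.97, 7.12 and 6.96 in the wild type, 7.47, 6.69 and 6.75 in the sufficient group and 7.49, 7.14 and 7.16 in the deficient group. Its deficient arrays lay just above the wild type, while the sufficient group spanned both, and the difference was 0.25 (SE 0.19, unadjusted p = 0.227, adjusted p = 0.957).

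Gbp4 was lower by 0.72 in log2 units (difference -0.72, SE 0.28, unadjusted p = 0.0281, adjusted p = 0.759) and Tgtp1 differed by -0.73 (SE 0.41, unadjusted p = 0.108, adjusted p = 0.899). Mpa2l, outside the list, differed by -0.65 (SE 0.23, unadjusted p = 0.0178, adjusted p = 0.683) with no overlap. The remaining GTPases lay between -0.39 for Gbp3 and 0.00 for Irgm2. Without wild-type array 2 the members were split 25 higher and 12 lower, with a median of 0.10 and with 11 non-overlapping and higher, against 8.16% of all genes in that fit. Without wild-type array 1 they were split 9 higher and 28 lower with a median of -0.17.

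By array number the combined difference changed direction. For number 1, 36 of 37 members were higher on the deficient array than on the wild-type array, with a median of 0.36. For number 2, 6 were higher and the median was -0.34, and for number 3, 15 were higher with a median of -0.08. Wild-type array 1 was thus low and wild-type array 2 high against the same-numbered deficient arrays.

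The rest of the pathway was counted in lists of genes that are no members. No gene of these lists passed the adjusted threshold in any comparison. Of 8 interferon genes, 6 were higher and 2 lower in the genotype comparison, with a median of 0.06. Ifng, interferon gamma, differed by 0.26 (SE 0.13, unadjusted p = 0.0814, adjusted p = 0.901) with arrays at 5.61 to 5.79 in the wild type, 5.68 to 6.18 in the sufficient and 5.69 to 6.02 in the deficient group, close to background, and it was above background on 2 of 3 wild-type arrays. Ifnb1, interferon beta, differed by 0.12 (SE 0.08) in that comparison and -0.09 between the diets. Ifna4 was below background on all 9 arrays.

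Of 11 receptor chains, kinases and STAT genes, 5 were higher and 6 lower in the genotype comparison and 3 higher and 8 lower in the diet comparison. Jak1, a kinase of both receptors, differed by -0.18 in the genotype comparison with no overlap, and Stat3 by -0.09.

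Of 12 measured sensing and adaptor genes, 5 were higher and 7 lower in the genotype comparison, among them Trim25, the ligase that activates RIG-I, at -0.20, Myd88 at -0.25 and Tmem173, which encodes STING, at -0.28. Of 11 genes that restrain the response, 3 were higher and 8 lower. They included Samhd1 at -0.24 (unadjusted p = 0.0238, adjusted p = 0.787), Socs1, which blocks JAK kinases, at -0.19, and the phosphatase gene Ptpn6 at -0.18. Of 42 further interferon-stimulated genes, 13 were higher and 29 lower in the genotype comparison with a median of -0.14, and 7 of them were lower at an unadjusted p under 0.05 (3% of all genes). Gbp9 at -0.37 and Gbp8 at -0.30 did not overlap between the groups, and Cd274, the gene of the checkpoint ligand PD-L1, differed by -0.64 (SE 0.24, unadjusted p = 0.0241, adjusted p = 0.790). In the diet comparison 33 of the 42 were higher with a median of 0.08, and none had an unadjusted p under 0.05.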

How the data were processed

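RNA from the right ventricle was measured on 9 arrays. The deposited series table holds log2 signals that the authors made with RMA, per the submitters' processing notes, which also name R 3.1.2 and mm8. The authors' deposited comparison table gives a ratio of group means and a p-value per probe set, quoted only as theirs. A deposited annotation table gave gene symbols; its 9 value columns match no sample label and were not used. Samples were grouped by the labels' genotype and diet.

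Of 35556 probe sets, 6546 were array controls, 5222 of them negative controls whose mean per array, 5.37 to 5.71 in log2, was taken as background. The probe set with the highest mean was kept for each of 22088 symbols. RMA had already aligned the arrays, whose medians lay between 7.16 and 7.21, and arrays correlated at r of 0.987 to 0.998 across genes. The number of arrays limits the precision.

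All genes were fitted on all 9 arrays with limma 3.58.1 in R 4.3.3, with group means, 6 residual and 3.34 prior degrees of freedom, and Benjamini-Hochberg adjustment over all genes. The script was tested on simulated data. Figures were drawn with matplotlib 3.10.9 in Python 3.11.15. Promoters and accession names are from RefSeq tables of GRCm38.p6, which were used for no coordinates of the array.

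The arrays carry numbers 1 to 3 in each group. With each array taken as its deviation from the group mean, all 9 pairs of equal number correlated at r of 0.138 to 0.391 and other pairs at -0.366 to 0.223, so the number was also fitted as a block, although no label says what it stands for. Other settings left out each array or the arrays numbered 3, took these arrays as a block, filtered dim probe sets, averaged probe sets, used a trended robust variance, weighted arrays or centred each array.

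Members and lists were chosen with earlier results of these data known. Every measured member is named; values on all arrays are given for the 5 GTPases and 9 other members with the lowest moderated F-test p, and for Irf1, Irf7, Irf9, Stat2, Cxcl9 and Cxcl10. Irgm1, Ifit1 and Ifi44 were added after their values were seen. Of each further list, the genes among the 3 with the lowest F-test p are named, with Ifng and Ifnb1; 1 gene that the rule picks is not reported here.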

Additional observations from a re-analysis of the deposited data

How the results depend on the processing

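With the array number as a replicate block no member passed the adjusted threshold, as in the fit without it. With that block 2 members were higher (4.1% of all genes) and 6 lower (4.26%) at an unadjusted p under 0.05 in the genotype comparison. Without it 1 was higher (2.71% of all genes) and 5 were lower (3%), so the share rose for all genes too. In the diet comparison 5 were higher with the block (0.878% of all genes) against 1 without it (0.444%). In the combined comparison 4 were higher (3.99%) and 1 lower (4.55%) with the block, against 3 (2.74%) and 1 (3.35%). Further, 13 of 37 were higher at that p in the diet comparison with array weights (3.27% of all genes). That fit leaned on few arrays, with weights of 4.86 for deficient array 1 and 3.26 for sufficient array 2. The arrays numbered 3 had weights of 0.372 to 0.425. The genes called were 10, 0 and 20 with that block, against 8, 0 and 15. Without the arrays numbered 3 they were 2, 0 and 3, and with array weights 12, 2 and 32. Leaving out 1 array at a time gave 7 to 27 genotype, 0 to 0 diet and 7 to 32 combined calls, with 27 genotype calls without wild-type array 1, 17 without wild-type array 3, 32 combined calls without wild-type array 3 and 7 without deficient array 1 or 2. The members called then were 0 to 1 in the genotype comparison, and the GTPase median ran from -0.92 to -0.26. Directions often turned when 1 array was left out. Of the 37 members, 12 turned in the genotype comparison and 11 in the combined comparison without wild-type array 2, and 8 genotype and 7 diet directions turned without sufficient array 3. Among the members given array by array under the naming rule, those that turned in the genotype comparison were Isg15 (-0.072 to 0.059), Stat2 (-0.20 to 0.084), Cxcl9 (-0.54 to 0.010) and Cxcl10 (-0.088 to 0.088). In the diet comparison they were Irf1 (-0.054 to 0.040), Irf9 (-0.034 to 0.20), Stat2 (-0.018 to 0.16), Bst2 (-0.20 to 0.11) and Cxcl10 (-0.15 to 0.10). In the combined comparison they were Irgm2 (-0.43 to 0.30), Iigp1 (-0.38 to 0.088), Oas1a (-0.061 to 0.085), Rtp4 (-0.12 to 0.10), Irf7 (-0.68 to 0.14), Irf9 (-0.40 to 0.0083), Stat2 (-0.12 to 0.17), Cxcl9 (-0.17 to 0.38) and Cxcl10 (-0.15 to 0.11). With the arrays numbered 3 left out, 4 of the 37 members turned in the genotype, 6 in the diet and 5 in the combined comparison, of which the members so described were Irf1 (-0.0025) and Cxcl10 (0.11) for the diet and Iigp1 (0.18) and Cxcl10 (0.11) for the combined one. With array weights 5, 3 and 5 turned, Cxcl10 in each (-0.015, 0.15 and 0.13), and with each array centred on its median 2 turned in the genotype comparison. The cause was not tested. Across the single-array omissions the 8 GTPases stayed lower in the genotype comparison and higher in the diet comparison. Precision is limited by 3 arrays a group and by the wild-type spread, a median SD of 0.54 for the GTPases. Mx1 and Mx2 were too close to background for a firm fold.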

Other observations

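The authors' deposited table gives a p-value under 0.05 for 6 of the 37 members between the sufficient group labelled Lrat-/- and the wild type, 3 higher and 3 lower, against 3.9% and 3.75% of the 22088 genes. It gives 2 such members between the diets and 3 between the deficient group and the wild type, all of them higher, against 1.2% and 3.34% of all genes. The lowest false discovery rate of a member in the authors' deposited table is 0.579, for Mx2. There Mx2 has a ratio of 1.43 between the deficient group and the wild type (p-value 0.00198), and Irgm1 a ratio of 0.701 between the sufficient group and the wild type (p-value 0.0172). Rtp4 has ratios of 0.741 (p-value 0.0270) for the genotype and 1.30 (p-value 0.0427) for the diet in the authors' deposited table.

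The tables name several GTPase and antiviral probe sets differently. The probe sets called Gbp4, Gbp6, Irgm2, Tgtp1, Isg15 and Ifi204 in the annotation table are Gbp8, Gbp7, Igtp, 9930111J21Rik2, Gm9706 and Mnda in the authors' deposited table.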
